A study of Mus musculus with 28 samples.

Results

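miR-296 is a microRNA (miRNA) of the imprinted Gnas region on mouse chromosome 2, and both of its mature arms, miR-296-5p and miR-296-3p, were followed through 28 libraries of small RNA from mouse sperm. The 2 members, mmu-miR-296-5p and mmu-miR-296-3p, were taken by name from the miRNA class of the deposited count tables, which hold 1408 distinct miRNA names, and both arms were present in all 3 tables. They were chosen by the measured levels of miR-296-5p, which were higher at the low alcohol dose in wild type sperm and lower with ethanol in Nrf2-/- sperm, so every value of those contrasts is given as a description, with no test. The rule had no threshold.

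The wild type (WT) table held 4 control libraries with no alcohol exposure, 4 from a low alcohol dose, 2 from a medium dose and 2 from a high dose. The Nrf2-/- table held 4 libraries from alcohol-exposed (ethanol) mice and 4 from unexposed controls, all carrying the null genotype. The last table held 4 Nrf2 LKO libraries, in which floxed Nrf2 was combined with Albumin-Cre to delete the gene in hepatocytes, and 4 Nrf2 flox libraries with the floxed gene alone. These 8 libraries had no stated alcohol exposure. In the LKO mice the deletion is driven in liver, so the sperm themselves were not the targeted cells. The labels give neither strain nor age, nor the alcohol amounts of the doses, nor whether libraries of a group came from separate animals, so p-values measure the spread between libraries. The column of WT medium 1 carries a high-dose initial in its name, so a contrast of both doses together, which does not depend on that library's dose, was fitted as well.

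Total counts ran from 1993933 to 11119711 per library, and miRNA counts from 227577 to 2744712. WT control 1 stood apart, with 75.8% of its counts on structural RNA, and WT control 4 listed miR-16-5p, a very abundant miRNA in the other libraries, at 0. All 14 sperm and spermatid marker transcripts had reads in every group, and reads of epididymis and red blood cell markers were present in every group too. Nrf2, the product of Nfe2l2, is a transcription factor of antioxidant genes. Nfe2l2 exons had 1 to 10 counts in Nrf2-/- ethanol and 0 to 20 in Nrf2-/- control libraries, 0 to 22 in Nrf2 LKO and 9 to 20 in Nrf2 flox libraries, and 4 to 47 in WT libraries. Which exons were deleted is not in the labels, so these counts check little.

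A miRNA precursor folds into a hairpin from which 2 arms can be cut, and the arm loaded into an Argonaute protein binds transcripts mainly through its seed, bases 2 to 8. miR-296 and its neighbour miR-298 belong to the Gnas imprinted domain, where the parental alleles are marked differently and the miRNAs come from the paternal allele. miR-296 is known for repressing Hgs, which sorts growth factor receptors for degradation, for repressing Nanog together with miR-134 and miR-470 in differentiating mouse embryonic stem cells, and for repressing the apoptosis gene Bbc3.

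The sequences of both arms and of the neighbouring miR-298 arms are shown because the seeds decide which other miRNAs could share targets, and the reads of the arms are compared throughout. They are the RefSeq entries for build GRCm38.p6, 5′ to 3′, and all 4 arms matched by name. Capitals mark the seed.
miR-296-5p: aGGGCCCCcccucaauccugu
miR-296-3p: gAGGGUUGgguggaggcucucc
miR-298-5p: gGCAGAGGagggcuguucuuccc
miR-298-3p: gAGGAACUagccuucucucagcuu
None of the 4 seeds was shared with another of the 1679 distinct mature names in the table. Only miR-5621-3p shared bases 2 to 7 with miR-296-5p. miR-296-5p is 21 bases long, with a GC content of 66.7% and a run of 7 C that begins inside the seed.

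The hairpin of miR-296 is shown to place the arms, which are in capitals, the 5p arm first.
Mir296: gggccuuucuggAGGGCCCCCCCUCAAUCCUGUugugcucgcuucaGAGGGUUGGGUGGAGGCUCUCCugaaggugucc
It is 79 bases long, with 13 bases between the arms, and lies at chr2:174267047-174267125 on the minus strand of GRCm38.p6. The 5p arm is at chr2:174267093-174267113 and the 3p arm at chr2:174267058-174267079. Each mature sequence was found in 1 hairpin of the table, so reads of a full-length arm have no second miRNA of origin there. In the GENCODE vM21 annotation Mir298 is 378 bases from Mir296 on the same strand, and no other gene overlaps Mir296. Nespas, a paternally expressed antisense transcript, is annotated 14111 bases away on the minus strand. Gnas, which encodes the stimulatory G protein alpha subunit, is 17194 bases away on the plus strand.

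Nearly all miR-296 reads in WT sperm were from the 5p arm. Levels below are CPM, counts scaled to the miRNA total of a library, adjusted within a table by TMM, which corrects for a few very abundant miRNAs, so a level in one table is set beside another with that limit. miR-296-5p averaged 193 ± 62.4 CPM in WT control, 442 ± 132 CPM in WT low (SD, n = 4 each), 199 ± 7.98 CPM in WT medium and 199.6 ± 82.7 CPM in WT high (SD, n = 2 each). It averaged 4.20 ± 1.92 CPM in Nrf2-/- ethanol and 14.3 ± 8.97 CPM in Nrf2-/- control libraries (SD, n = 4 each). It averaged 328 ± 222 CPM in Nrf2 LKO and 165 ± 67.1 CPM in Nrf2 flox libraries (SD, n = 4 each). From the highest mean down, the order was WT low, Nrf2 LKO, WT high, WT medium, WT control, Nrf2 flox, Nrf2-/- control and Nrf2-/- ethanol. Neighbours in this order overlapped except Nrf2 flox and Nrf2-/- control, and no order among the others is read from the means. All 8 Nrf2-/- libraries, at 24.1 CPM or less, lay below all 20 others, at 102 CPM or more. Genotype and count table, with any batch that goes with the table, cannot be told apart there.

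**Figure D1:**
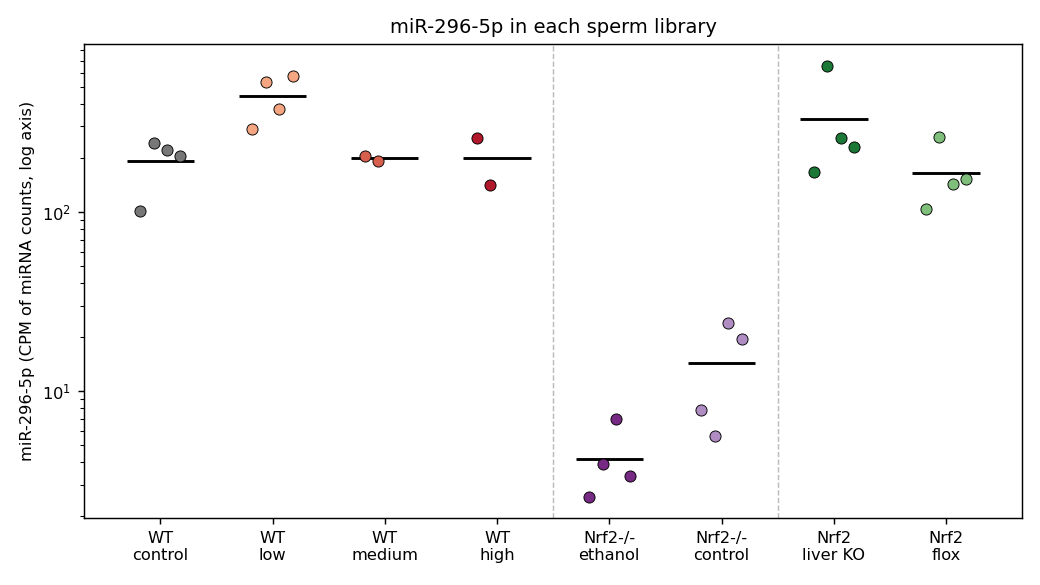
CPM of miR-296-5p (log axis) in each of the 28 libraries by group, with horizontal bars at the group means and dashed lines between the 3 count tables. The Nrf2-/- libraries sit between 2.57 and 24.1 CPM, and the other libraries between 102 and 656 CPM.

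By rank, miR-296-5p stood between place 103.5 and 131.5 in the WT control libraries, in which 372 to 704 miRNAs had reads, and between 83 and 103 in the WT low libraries, in which 479 to 580 had reads, tied miRNAs sharing a mean place. In Nrf2-/- ethanol libraries it stood between place 186 and 301.5, with 418 to 561 miRNAs above 0, and in Nrf2-/- controls between 141.5 and 228.5, with 360 to 574 above 0. In the Nrf2 LKO libraries it stood between place 87 and 151.5, with 369 to 580 miRNAs above 0, against 124 to 184 in the Nrf2 flox libraries, with 534 to 551 above 0.

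At the low dose, miR-296-5p had 289, 528, 377 and 574 CPM in the 4 WT low libraries, from 402, 613, 442 and 402 counts, against 102, 241, 222 and 205 CPM in the 4 WT controls, from 44, 274, 53 and 416 counts. Every low-dose library was above every control on this scale, and the share of all 338 miRNAs that separate as fully is not given here. The ratio of the means was 2.30, and the fitted log2 difference was 1.20 (SE 0.40). Of the 338 miRNAs tested in the WT table, 23 had a log2 difference at least as high, and the median over all of them was -0.13. These values come from the contrast that chose miR-296 and support nothing by themselves.

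The separation depended on the library size used. With plain miRNA totals, the WT low libraries had 248, 491, 368 and 512 CPM, against 92.9, 250.2, 233 and 406 CPM in the WT controls, and the groups overlapped with a ratio of 1.65. Control 4, which has no miR-16-5p reads, is the control at 406 CPM on that scale and at 205 CPM after TMM. With the total of miRNA counts other than miR-16-5p the ratio was 1.99, and with the total of all feature classes it was 1.94, and on both scales 3 of 4 low-dose libraries were above the highest control.

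Red blood cell signals moved with the low dose as well. The 4 red blood cell miRNAs (miR-451a, miR-144-5p, miR-144-3p and miR-486a-5p) summed to 3101, 3015, 4419 and 3535 CPM in WT low, against 321, 226, 230.1 and 539.7 CPM in WT control. Of 8 red blood cell transcripts, which include the globins Hba-a1 and Hbb-bs, 7 had reads in both groups and Ahsp was at 0. Their exons summed to between 34.9 and 63.8 CPM of all counts in WT low libraries and between 1.89 and 13.5 CPM in WT controls. In these bulk samples fewer cells of a type and less RNA per cell cannot be told apart, and the part of blood RNA in the difference of miR-296-5p was not tested.

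At the medium and high doses miR-296-5p overlapped the control range. The medium libraries had 205 and 193 CPM and the high libraries 258 and 141 CPM, against 102 to 241 CPM in the WT controls, which are the same controls as in the low-dose contrast. The log2 difference was 0.05 for the medium dose (SE 0.49, 95% interval -1.03 to 1.13) and 0.05 for the high dose (SE 0.48, interval -1.03 to 1.13). With both doses together it was 0.05 (SE 0.40, interval -0.83 to 0.93), with an adjusted p of 0.9998 in edgeR's quasi-likelihood F test with Benjamini-Hochberg adjustment. Single-dose adjusted p were 0.991 for medium and 1 for high in the same test. The intervals are wide on both sides of 0, and the sign of these differences changed with the scaling, so no direction is given. In each of these 3 contrasts 0 of 338 miRNAs (0%) passed an adjusted p of 0.05 in edgeR, 9, 9 and 19 had an unadjusted p under 0.05 for medium, high and both together, and DESeq2 called 7, 7 and 12. Red blood cell miRNAs varied within these groups, at 603 and 2141 CPM in the medium and 372 and 3216 CPM in the high libraries, in the same order. The part of blood RNA in miR-296-5p was not tested here.

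In Nrf2-/- sperm the counts behind miR-296-5p were small. The ethanol libraries had 7, 9, 11 and 4 counts, or 2.57, 3.92, 6.95 and 3.37 CPM, and the Nrf2-/- controls had 20, 16, 26 and 28 counts, or 7.85, 5.58, 24.1 and 19.5 CPM. Of the 4 ethanol libraries, 3 were below the lowest control, and ethanol 3 lay above control 2. The ratio of the means was 0.294 and the fitted log2 difference was -1.74 (SE 0.67), with 7 of 237 miRNAs at least as far down and a median over all of -0.09. With plain miRNA totals the ethanol libraries had 2.69, 4.45, 5.42 and 2.09 CPM, against 10.0, 5.83, 30.8 and 19.1 CPM in the controls, and the groups did not overlap. Nor did they overlap when scaled to the total of all classes, where miR-296-5p averaged 1.69 ± 0.724 CPM in ethanol and 4.45 ± 1.63 CPM in control libraries (SD, n = 4 each). The share of all 237 miRNAs that separate as fully is not given here. This contrast also chose miR-296, and no test is read from it.

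The Nrf2-/- controls fell into 2 pairs by their epididymis reads. Epididymis marker exons (11 transcripts such as Crisp1, Gpx5 and Cd52) summed to 334, 267, 185 and 436 CPM of all counts in the ethanol libraries, against 1577, 1327, 54.8 and 40.2 CPM in the controls. All 11 markers had reads in the control group and 8 in the ethanol group, where Lcn8, Lcn9 and Spint4 were at 0. The epididymis-rich controls 1 and 2 had 7.85 and 5.58 CPM of miR-296-5p, and controls 3 and 4, with few epididymis reads, had 24.1 and 19.5 CPM. The same libraries differed in red blood cell miRNAs, at 1547, 2373, 1688 and 857 CPM in ethanol and 279, 545, 5359.6 and 2019 CPM in control libraries. Red blood cell exons summed to 13.2, 14.4, 9.74 and 31.6 CPM of all counts in ethanol and 5.19, 7.90, 32.9 and 14.3 CPM in control libraries. Epithelial miRNAs (the miR-200 family and miR-205-5p) summed to 5020, 6373, 39289 and 2579 CPM in ethanol and 11770, 9611, 268 and 5156 CPM in control libraries. Ethanol 3 was thus highest in epithelial miRNAs but lowest of the ethanol libraries in epididymis exons. Sperm and spermatid marker exons summed to 258, 348, 308 and 356 CPM of all counts in ethanol libraries. In control libraries they summed to 208, 259, 901 and 1138 CPM. Male germ cell miRNAs (miR-34c-5p, miR-34b-5p and miR-449a-5p) summed to 2141, 2779, 5224 and 2773 CPM in ethanol libraries. They summed to 4383, 3838, 8134 and 9562 CPM in control libraries. The difference of miR-296-5p between ethanol and control libraries is smallest against controls 1 and 2. The part of sperm, epididymal, epithelial or blood RNA in that difference was not tested.

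**Figure D2:**
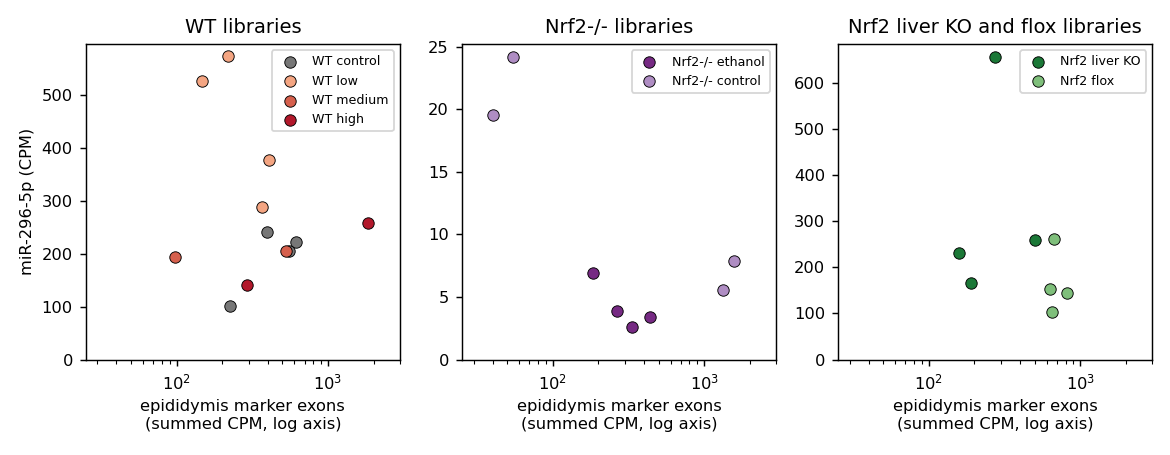
CPM of miR-296-5p against the summed CPM of 11 epididymis marker transcripts (log axis) in the libraries of each count table, each point 1 library. The 4 Nrf2-/- controls form 2 pairs, with 24.1 and 19.5 CPM of miR-296-5p at the lowest epididymis sums and 7.85 and 5.58 CPM at the highest, and the Nrf2 LKO libraries lie to the left of the Nrf2 flox libraries.

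The liver knockout gave the one contrast whose libraries played no part in choosing miR-296. Nrf2 LKO libraries had 166, 656, 259 and 231 CPM of miR-296-5p, from 67, 190, 172 and 227 counts, against 104, 261, 144 and 153 CPM in Nrf2 flox libraries, from 56, 180, 95 and 137 counts. On this scale LKO 2 stood well above the rest, and the other LKO libraries lay inside the flox range. With plain miRNA totals the LKO libraries had 125, 512, 281 and 265 CPM, against 119, 255, 153 and 175 CPM in the flox libraries, so 3 of 4 were above the highest flox library. This was also so with the total of miRNA counts other than miR-16-5p. Scaled to the total of all classes, the LKO libraries had 20.5, 58.3, 49.9 and 52.5 CPM, against 21.8, 42.9, 21.6 and 39.7 CPM in the flox libraries, with 3 of 4 above the highest flox library and LKO 1 below the lowest. On each of the 4 scales the groups overlapped. The log2 difference was 0.97 (SE 0.44, 95% interval 0.03 to 1.92), with an unadjusted p of 0.0444 and an adjusted p of 0.366 in edgeR's quasi-likelihood F test over 295 miRNAs. An exact two-sided permutation test of the CPM, chosen after the data were seen, gave p = 0.171, where the smallest possible p is 0.0286. The contrast thus did not pass the adjusted threshold, and without LKO 2 the log2 difference was 0.40 (adjusted p = 0.735 in edgeR). In the same fit 0 of 295 miRNAs (0%) passed, 40 had an unadjusted p under 0.05, and DESeq2 called 0.

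Epithelial and epididymis markers differed between the same libraries, and red blood cell and leukocyte markers overlapped. The 6 epithelial miRNAs (the miR-200 family, miR-141-3p and miR-429-3p included, and miR-205-5p) summed to between 8569 and 18269 CPM in Nrf2 LKO and between 19201 and 26420.3 CPM in Nrf2 flox, with no overlap. Epididymis marker exons summed to between 159 and 505 CPM of all counts in Nrf2 LKO, with 8 of 11 above 0. In Nrf2 flox they summed to between 632 and 820.3 CPM, with all 11 above 0, again with no overlap. The share of all miRNAs, or of all other features, that separate as fully is not given here. The red blood cell miRNAs overlapped, at 494, 2007, 995 and 532 CPM in Nrf2 LKO, highest in LKO 2, against 1729, 939, 496 and 521 CPM in Nrf2 flox. Within groups, over these 8 libraries, the deviations of log2 CPM of miR-296-5p had Pearson's r of -0.81 with miR-200a-3p, -0.73 with miR-141-3p, -0.67 with miR-200b-3p, -0.59 with miR-429-3p and -0.01 with miR-205-5p, given as a description of libraries that share depth and scaling. miR-200c-3p was not compared, because it did not reach 10 counts in at least 20 of the 28 libraries. It was at 0 in all WT control and WT high libraries. In the Nrf2 LKO and flox libraries it was the most abundant of the 6, at an average log2 CPM of 13.0. Over all miRNAs compared, r ran from -0.93 for miR-199a-5p to 0.68 for miR-125a-5p in these 8 libraries. miRNAs outside the epithelial list were as low, such as miR-669a-5p at -0.86 and miR-27a-3p at -0.85. The part of epithelial, epididymal or blood RNA in the value of miR-296-5p was not tested.

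The 3p arm overlapped widely between Nrf2 LKO and Nrf2 flox. miR-296-3p had 79.5, 31.1, 24.1 and 32.6 CPM in Nrf2 LKO libraries, from 32, 9, 16 and 32 counts, against 39.0, 33.3, 54.6 and 18.98 CPM in Nrf2 flox libraries, from 21, 23, 36 and 17 counts. The high LKO library was LKO 1, not the LKO 2 that was high in the 5p arm. The log2 difference was 0.19 (SE 0.50, interval -0.89 to 1.26), with an adjusted p of 0.904 in edgeR, and its sign changed with the library size used. Whether the arms differ from each other in their response was tested through the share of 5p among all miR-296 reads. That share averaged 85.6 ± 12.4% in Nrf2 LKO and 80.7 ± 9.35% in Nrf2 flox libraries (SD, n = 4 each), a difference of 4.85 percentage points (exact two-sided permutation p = 0.571).

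The neighbour miR-298-5p was, like the 5p arm, highest in LKO 2. It had 119, 428, 142 and 96.8 CPM in Nrf2 LKO, against 59.5, 123, 111 and 75.9 CPM in Nrf2 flox. The log2 difference was 1.06 (SE 0.47, adjusted p = 0.364 in edgeR), and 0.35 without LKO 2 (adjusted p = 0.781). Summed over libraries, there were 1.82 reads of miR-296-5p for each read of miR-298-5p in Nrf2 LKO and 1.81 in Nrf2 flox.

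**Figure D3:**
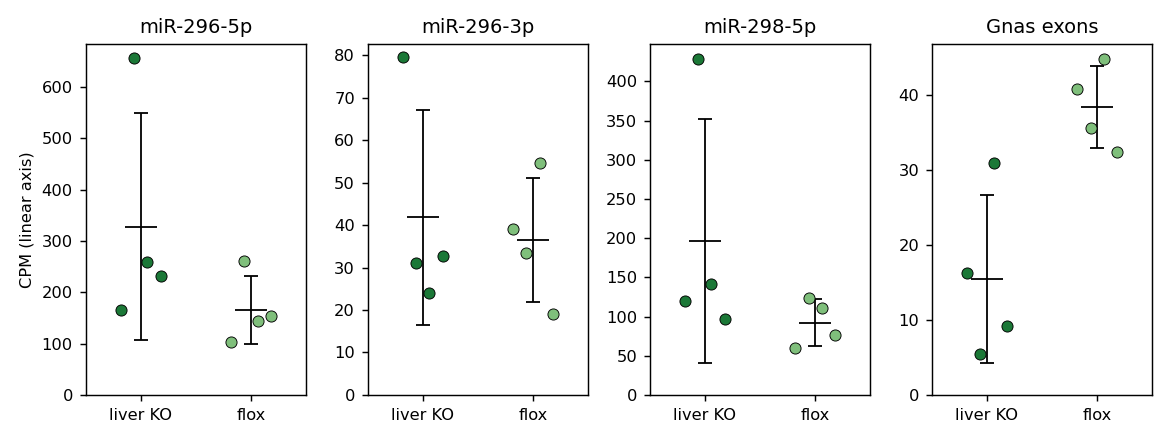
CPM (linear axes) of both miR-296 arms, of miR-298-5p and of Gnas exons in the 4 Nrf2 LKO and 4 Nrf2 flox libraries, with points for libraries and bars for the mean ± SD. LKO 2, at 656 CPM of miR-296-5p and 428 CPM of miR-298-5p, is the highest in both, and LKO 1 is the highest in miR-296-3p at 79.5 CPM. Gnas exons lie between 5.48 and 30.9 CPM in Nrf2 LKO and between 32.4 and 44.8 CPM in Nrf2 flox.

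Gnas exons had lower CPM in the Nrf2 LKO than in the Nrf2 flox libraries, but did not pass the adjusted threshold in the main fit. They had 16.3, 5.48, 30.9 and 9.21 CPM of the counts outside miRNAs in Nrf2 LKO, against 40.8, 35.6, 44.8 and 32.4 CPM in Nrf2 flox. The log2 difference was -1.30 (SE 0.35) with an adjusted p of 0.141 over 9836 features in edgeR, of which 5 (0.0508%) passed the threshold. An unadjusted p under 0.05 was reached by 1223 of them in edgeR, and DESeq2 called 41. The 4 LKO values of Gnas lay below the 4 flox values, and the share of all 9836 features that separate as fully is not given here. With no filter on low counts the adjusted p for Gnas was 0.00850, and without LKO 3 it was 0.00348 at a log2 difference of -1.91. With each library left out in turn the adjusted p in edgeR ran from 0.00348 to 0.503, and 8 of the 10 alternatives did not pass. Nespas had 1, 0, 0 and 0 counts in Nrf2 LKO and 2, 4, 6 and 1 counts in Nrf2 flox, too few to be tested. Isoforms of Gnas overlap, and Gnas and Nespas overlap on opposite strands, so with the strand of counting not given their reads may be shared. Epididymis markers moved with Gnas. Their sums, given above, were lower in every Nrf2 LKO library, and Cd52, a sperm-coating protein made by the epididymis, fell (log2 difference -1.56, adjusted p = 0.0303 in edgeR). In the Nrf2-/- table Gnas exons had 35.7, 37.2, 19.3 and 35.3 CPM in ethanol and 145, 143, 10.1 and 11.6 CPM in control libraries, the epididymis-rich controls being the high ones. The part of epididymal RNA in the Gnas values was not tested.

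The 3p arm was a small part of the miR-296 reads in WT sperm and a larger part in the Nrf2 LKO and flox libraries. In WT sperm, 26 of 3537 reads of miR-296 were 3p (0.735%, 95% Wilson interval 0.502 to 1.07%). In Nrf2-/- sperm, 7 of 128 reads were 3p (5.47%, interval 2.67 to 10.9%), and over the Nrf2 LKO and flox libraries 186 of 1310 (14.2%, interval 12.4 to 16.2%). No WT library exceeded a 3p share of 1.85%, and no LKO or flox library was below 4.52%. In WT low 1, 3 and 4 no 3p read was seen, and the widest upper limit of these libraries was 0.947%. Among Nrf2-/- libraries, 4 of 35 reads were 3p with ethanol (11.4%, interval 4.54 to 26.0%) and 3 of 93 in the controls (3.23%, interval 1.10 to 9.06%). The arm had 0 to 3 counts per library there, so its share is hardly resolved. Intervals cover counting error only, and the genotype and the table, with any batch that goes with the table, cannot be told apart. The 3p arm passed the count filter in the Nrf2 LKO and flox table alone.

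miR-298-5p showed the same division by table. It had 0 to 14 counts in WT libraries and 0 to 7 in Nrf2-/- libraries, against 48 to 124 in Nrf2 LKO and 32 to 85 in Nrf2 flox libraries. Reads of miR-296-5p outnumbered those of miR-298-5p 56.6 to 1 in the WT table, 4.65 to 1 in the Nrf2-/- table and 1.82 to 1 in the Nrf2 LKO and flox table. miR-298-3p had 1 read, in a WT control, in all 28 libraries.

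**Figure D4:**
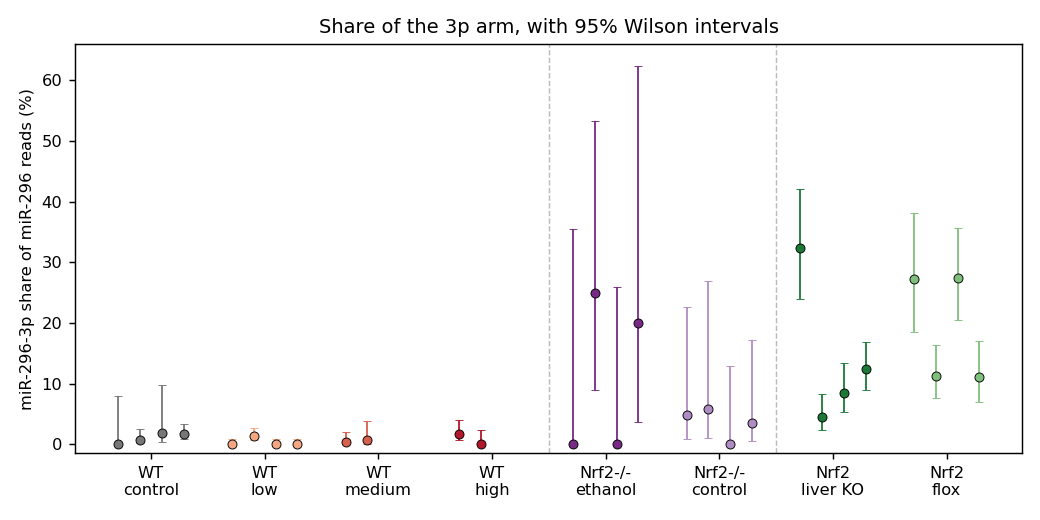
Share of miR-296-3p among the reads of both miR-296 arms in each library (percent), with 95% Wilson intervals for counting error. WT libraries lie between 0 and 1.85%, Nrf2 LKO and Nrf2 flox libraries between 4.52 and 32.3%, and the Nrf2-/- intervals are wide because few reads were counted.

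Other miRNAs of imprinted genes did not pass the test in the liver knockout. miR-335-5p, from an intron of Mest, averaged 184 ± 25.3 CPM in Nrf2 LKO and 285 ± 185 CPM in Nrf2 flox (SD, n = 4 each; log2 difference -0.63, adjusted p = 0.485 in edgeR). miR-483-3p, from an intron of Igf2, averaged 58.1 ± 54.5 CPM in Nrf2 LKO and 24.3 ± 15.1 CPM in Nrf2 flox (SD, n = 4 each; log2 difference 1.18, adjusted p = 0.466 in edgeR). miR-675-3p of H19, miR-483-5p and miR-335-3p had at most 5 counts in any library. Of the miRNAs that act with miR-296 on Nanog in embryonic stem cells, miR-134-5p averaged 43.8 ± 38.3 CPM in Nrf2 LKO and 40.7 ± 38.3 CPM in Nrf2 flox (SD, n = 4 each). miR-470-5p averaged 866 ± 280.2 CPM in Nrf2 LKO and 584 ± 196 CPM in Nrf2 flox (SD, n = 4 each; log2 difference 0.56, adjusted p = 0.466 in edgeR). In the WT table miR-134-5p had 0 to 6 counts, so it too had far fewer reads outside the Nrf2 LKO and flox table. Of the known target transcripts, Bbc3 had 0 to 9 exon counts per library and Nanog 0 to 4 in the WT table, too few to be tested. Hgs had 1 to 54 exon counts per library. In the medium and high libraries against WT control its log2 difference was -0.15 (SE 0.44, adjusted p = 1.00 in edgeR), with 0 of 17937 features (0%) called, 543 at an unadjusted p under 0.05 and 1 called by DESeq2. In Nrf2 LKO it had 8, 8, 5 and 7 counts, against 11, 27, 26 and 7 counts in Nrf2 flox, and it did not pass the count filter there.

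Within groups, the miRNAs that varied most like miR-296-5p were miR-425-5p, miR-93-5p, miR-486a-5p, miR-486b-5p and miR-467e-5p. Likeness was Pearson's r of the deviations of log2 CPM from the group means over 28 libraries, among 172 miRNAs with at least 10 counts in at least 20 libraries. It was 0.65 for miR-425-5p, 0.60 for miR-93-5p, 0.60 for miR-486a-5p, 0.59 for miR-486b-5p and 0.52 for miR-467e-5p, while the median over the 172 was -0.09. The points share library depth and scaling. miR-486a-5p is one of the red blood cell miRNAs named above. Its copy miR-486b-5p may share reads with it, but the handling of multiply mapping reads is not given. For miR-425-5p r was 0.48 in the 12 WT libraries, 0.98 in the 8 Nrf2-/- libraries and 0.21 in the 8 LKO and flox libraries. The likeness was thus highest in the Nrf2-/- table. The part of the split of its controls by epididymis reads was not tested. miR-486a-5p had 0.52, 0.81 and 0.62 in the same order of tables. Another miRNA of the red blood cell list, miR-451a, went otherwise. Its r was -0.06 over the 28 libraries, and -0.59, 0.29 and -0.20 by table in that order. The red blood cell miRNAs miR-144-5p and miR-144-3p were not compared, so nothing is read for the list as a whole. miR-296-3p and miR-298-5p reached 10 counts in 7 and 10 libraries and could not be compared.

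**Figure D5:**
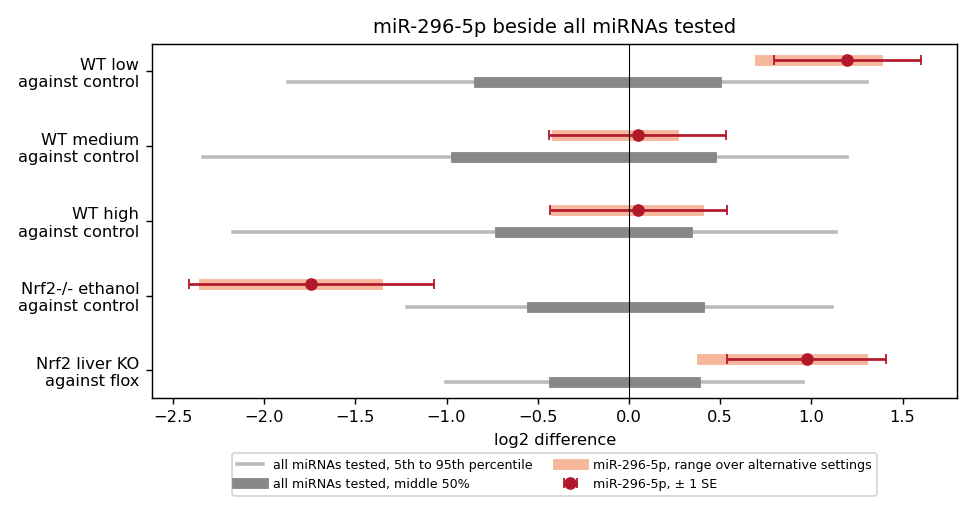
Log2 difference of miR-296-5p in 5 contrasts (points, ± 1 SE), with the range over alternative settings (pale bars) and the spread of all miRNAs tested (grey bars). The low-dose value of 1.20 and the Nrf2-/- ethanol value of -1.74 come from the contrasts that chose the miRNA, the medium and high values of 0.05 lie within the dark grey bars, and the liver knockout value is 0.97.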

How the data were processed

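Small RNA libraries were made from Trizol-extracted sperm RNA with a Qiaseq kit, per the labels' protocols. The authors deposited raw read counts per feature in 3 tables, with 8 feature classes. Aligner, counter, build and handling of multiply mapping reads: not given in the sources used here. Counts were summed per name within a class. Groups and replicate numbers came from the labels.

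miRNAs were tested per table with edgeR 4.0.16 in R 4.3.3 (filterByExpr, TMM, quasi-likelihood F test, two-sided, Benjamini-Hochberg at 0.05), with all 12 WT libraries in 1 fit, and other features as a separate family. CPM of other features use their own TMM scaling, and marker sums use the total of all counts. The SE is the log2 difference divided by the root of F. Alternatives were DESeq2 1.42.0, 3 other library sizes, leaving out the filter, a fit of the compared groups alone, the replicate number as a block and each library left out. The exact test of CPM and leaving out libraries for miR-298-5p and Gnas were chosen after seeing the data. The pipeline was tested on simulated counts. Exact tests used scipy 1.17.1.

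Members, lists and tests were chosen with earlier results of these data known. Named by rule were both arms, miR-298, miRNAs of H19, Igf2 and Mest, miR-134 and miR-470, Gnas, Nespas, known targets, miRNAs sharing a seed, and the 5 closest miRNAs by within-group correlation of log2 CPM (prior count 2). Correlations of deviations between same-numbered libraries ran from -0.30 to 0.42, and in no comparison was every pair above 0.1, so the numbers were not taken to pair libraries. In 3 of 16 pairs the first library's best match was its own number. Depth limits single shares, given with 95% Wilson intervals, for counting error only.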

Additional observations from a re-analysis of the deposited data

Results flagged for a closer look

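In the Nrf2 LKO group 1 library lay far from the other 3 for miR-296-3p, at 79.5 CPM in LKO 1, and another for miR-298-5p, at 428 CPM in LKO 2. By chance this happens in about 1 of 20 groups of 4, and many groups were examined. The direction of miR-296-5p differed between alcohol contrasts, with a log2 difference of 1.20 for WT low against control and -1.74 for Nrf2-/- ethanol against control. This difference was not tested, since both contrasts chose the miRNA.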

How the results depend on the processing

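The log2 difference of miR-296-5p kept its direction and did not pass the adjusted threshold in Nrf2 LKO against flox under all 15 alternatives (0.40 to 1.28, adjusted p 0.228 to 0.735). It ran from 0.72 to 1.36 for the low dose and from -2.33 to -1.38 for Nrf2-/- ethanol. Leaving out 1 library gave 0.40 to 1.28 in Nrf2 LKO, 1.04 to 1.36 at the low dose and -2.20 to -1.38 with ethanol. Plain miRNA totals moved the median of all miRNAs by -0.48 at the low dose and by -0.38 with ethanol, and relative to the median miR-296-5p was then at 1.33 and -1.66. The total of all classes moved the Nrf2 LKO median by -0.33, with miR-296-5p at 0.82 above it.

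Values near 0 changed sign. For miR-296-3p in Nrf2 LKO the log2 difference was -0.12 with the total of all classes, -0.075 with plain miRNA totals and -0.31 to 0.50 with 1 library left out. For miR-296-5p at the medium dose it was -0.00167 with DESeq2, -0.087 with all classes, -0.40 with miRNA totals, -0.00122 with no filter, -0.051 with only the groups compared and -0.18 to 0.16 with 1 library left out. At the high dose it was -0.16 with all classes, -0.40 with miRNA totals, -0.15 without miR-16-5p in the total, -0.084 with only the groups compared and -0.38 to 0.38 with 1 library left out. For both doses together these were -0.12, -0.40, -0.065, -0.047 and -0.18 to 0.20. The cause was not tested.

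The number of miRNAs called, 0 in edgeR, became 2 in Nrf2 LKO with no filter and 1 with the replicate block. For medium it became 7 with DESeq2, 3 with no filter and 0 to 2 with 1 library left out, for high 7 with DESeq2 and 0 to 5, and for both together 12, 6 and 0 to 5. For Gnas in Nrf2 LKO the log2 difference was -1.36 with no filter, past the threshold, and -1.91 to -1.01 with 1 library left out. With 1 library left out it passed only without LKO 3, and the adjusted p in edgeR rose as high as 0.503. The replicate block gave 0.87 for miR-296-5p in Nrf2 LKO (adjusted p = 0.243 in edgeR) and 0.26 for both doses together, and changed no call of a member.

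Depth limits the 3p arm in WT and all miR-296 reads in Nrf2-/- libraries.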

Other observations

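Reads assigned to the whole precursor of miR-296 were fewer than those of the mature arms together in all tables. Rows of the miRNA class named for the precursor held 57 reads over the WT libraries, 4 over the Nrf2-/- libraries and 0 over the LKO and flox libraries. Hairpin rows held 147, 11 and 26 reads in the same order. These are raw sums over 12, 8 and 8 libraries of unequal depth, beside 3537, 128 and 1310 reads of the mature arms. Of the mature reads 26, 7 and 186 were miR-296-3p, so hairpin reads outnumbered 3p reads in the WT and Nrf2-/- tables. Whether precursor reads bear on the 3p share was not tested. In the WT table the precursor rows of the miRNA class summed to 6 reads in control, 28 in low, 9 in medium and 14 in high libraries. The hairpin row in medium and high libraries against WT control had a log2 difference of 0.30 (adjusted p = 1.00 in edgeR).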
